A study of Saccharomyces cerevisiae with 25 samples.

Results

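The transcriptomes of 2 budding yeast (Saccharomyces cerevisiae) deletion strains, not2 and not3, were compared directly in exponential phase. The comparison rests on 4 of the 25 Affymetrix arrays of the study, chosen by their titles: replicates 1 and 2 of not2 and replicates 1 and 2 of not3. The not2 cells lacked CDC36, the gene that encodes Not2, and the not3 cells lacked NOT3. Both strains are labelled as null and grew in glucose-rich medium, with no further treatment, until collection in exponential phase. The 2 wild-type arrays of the same growth phase, and the single not4 and not5 arrays, serve below as a scale for levels. Per the series' design text the samples were prepared 2 times independently, and the partner arrays of these 2 single ones were discarded as problematic. The labels give neither the strain background, the mating type, the ploidy nor the marker used for each deletion.

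Ccr4-Not is a protein assembly found from yeast to human, with roles in mRNA deadenylation, in transcription and in protein turnover. Not1, encoded by CDC39, is its scaffold. Not2, Not3 and Not5 bind one end of that scaffold, where Not2 and Not5 form a structural pair. Not3 is a close relative of Not5, and in yeast its loss is known for milder growth defects than the loss of Not2. In yeast, mating genes report the cell type: a cells transcribe a-specific genes, alpha cells transcribe alpha-specific genes, both haploid types transcribe haploid-specific genes, and a/alpha diploids turn off all of these sets.

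Each of the 5656 genes tested was represented by 1 probe set, and levels are the deposited values, taken as log2. The array medians over all probe sets were 5.37 and 5.36 in not2, 5.22 and 5.24 in not3, and 5.27 and 5.20 in wild type. The replicates correlated across genes with r = 0.963 in not2 and r = 0.975 in not3, and the median absolute difference between replicates was 0.374 in not2 and 0.252 in not3. Differences are given as not2 minus not3 on the log2 scale ± SE, with n = 2 arrays in each strain. The SE and the Benjamini-Hochberg adjusted p come from a limma fit to all 25 arrays. A gene is said to be called, or to have been higher, lower, risen or fallen, where that adjusted p was under 0.05.

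The deleted genes matched the labels. CDC36 read 3.47 and 3.01 in not2, against 8.10 and 7.93 in not3 and 8.09 and 8.02 in wild type. Its difference was -4.78 ± 0.32 (limma adjusted p = 2.84e-09). NOT3 read 4.58 and 4.56 in not2, against 2.31 and 2.25 in not3 and 5.40 and 4.94 in wild type, a difference of 2.29 ± 0.34 (limma adjusted p = 0.000166). For both genes the arrays of the strain labelled as lacking it lay apart from the other 4, and the NOT3 level in the not2 strain lay below both wild-type arrays. Where the probes lie relative to the deleted stretches was not analysed here.

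Among the transcripts of the 7 other subunits there was 1 call. MOT2, the gene of the ubiquitin ligase subunit Not4, read 5.30 and 5.12 in not2, against 4.08 and 4.41 in not3 and 4.77 and 4.47 in wild type. Its difference of 0.97 ± 0.30 was called (limma adjusted p = 0.0276), but the call was lost on leaving out any 1 of the 4 arrays. None of the remaining 6 subunit genes was called. The difference was 0.74 ± 0.31 for NOT5, 0.54 ± 0.29 for CAF130, 0.39 ± 0.26 for POP2, which encodes the deadenylase Caf1, and -0.16 ± 0.45 for CCR4, the gene of the main deadenylase. CAF40 differed by -0.06 ± 0.33 and CDC39 by 0.59 ± 0.49, with its 2 not2 arrays at 6.33 and 4.58. CDC39 has 9 probe sets, and the one used is less specific. The others gave differences of both signs, from -0.34 to 0.62, and none was called.

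Genes next to the deletions were examined too, as ordered in the R64 reference. Beside NOT3, the 2 not2 arrays read 6.90 and 6.91 for TED1, against 8.51 and 8.71 in not3 and 8.59 and 7.77 in wild type (-1.71 ± 0.32, limma adjusted p = 0.000991). TED1 encodes a membrane protein involved in the maturation of GPI-anchored proteins. PRM2, a pheromone-regulated membrane protein gene on the other side of NOT3, read 2.40 and 2.40 in not2, against 4.60 and 4.51 in not3 and 3.62 and 2.70 in wild type (-2.15 ± 0.38, limma adjusted p = 0.000645). Beside CDC36, FAP7, a gene needed for small ribosomal subunit assembly, differed by 1.18 ± 0.41 (limma adjusted p = 0.0425) and CDC9, the DNA ligase gene, by -1.01 ± 0.35 (limma adjusted p = 0.0408). Both of these calls were lost on leaving out not2 replicate 2 or either not3 array.

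Across all genes the strains differed widely. Of the 5656 genes 1210 were called (21.4%), with 709 higher in not2 (12.5%) and 501 lower in not2 (8.86%). By at least 1 log2 unit, 950 genes were called (16.8%), of which 557 were higher and 393 lower. At 2 units or more, 66 were higher and 72 lower. The median difference of all genes was 0.08, with quartiles of -0.37 and 0.58. The balance of directions moved with level: the median difference was 0.11 in the 1414 genes with the lowest levels and -0.13 in the 1414 with the highest. Each strain's 2 arrays lay wholly apart from the other strain's in 3471 genes (61.4%), 1955 higher in not2 (34.6%) and 1516 lower (26.8%).

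Leaving out 1 array leaves 1 in that strain and lowers the precision, so a call can be lost whatever the array left out held. The number of calls was smaller each time. It was 881 without not2 replicate 1, 686 without not2 replicate 2, 485 without not3 replicate 1 and 724 without not3 replicate 2. The calls that were made whichever array was left out numbered 324, with 165 higher and 159 lower, and a gene is said to be kept below where it is among them. With each array centred on its own median the split was 514 higher and 670 lower, since centring moves every difference by -0.14, and after cyclic loess normalization it was 537 higher and 605 lower. Small differences of lists with many members therefore depend on the normalization. The median of all genes is only a partial guide to them, since the median difference moved with level.

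**Figure D1:**
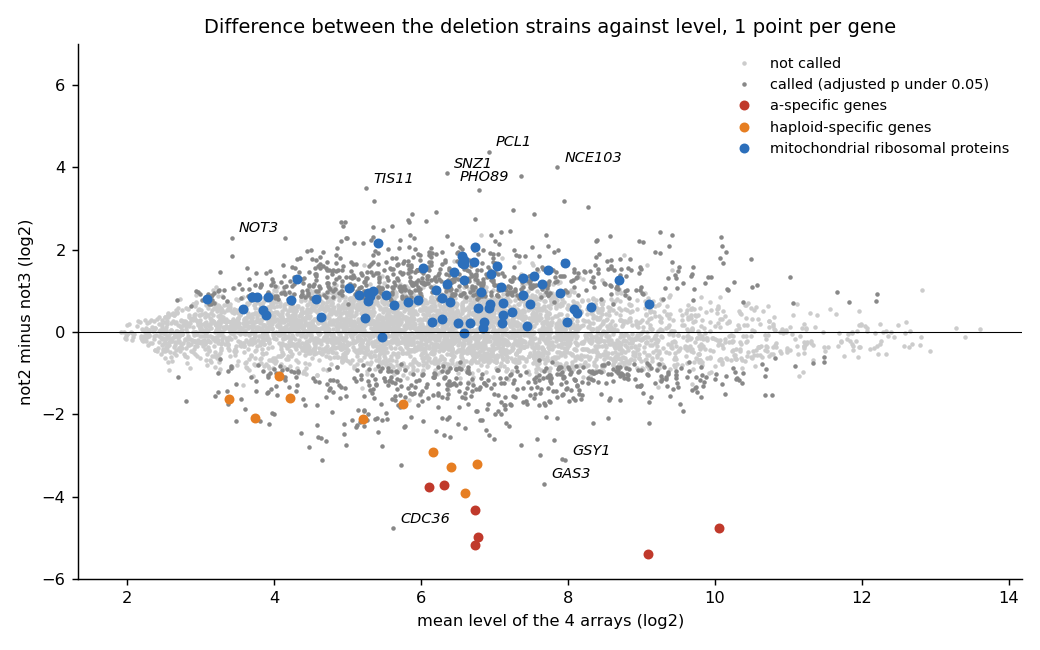
Difference between not2 and not3 (log2, vertical axis) against the mean level of the 4 arrays (log2, horizontal axis), 1 point per gene, with called genes in dark grey. The 7 a-specific genes in red lie between -5.41 and -3.71, and the mitochondrial ribosomal protein genes in blue have a median of 0.82.

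Genes that mark a cells were far lower in not2. All 7 a-specific genes measured were called lower and kept, with a median difference of -4.77, against 8.86% of all genes called lower and a median of 0.08. Their mean level was 4.93 and 5.29 in the not2 arrays, against 9.73 and 9.68 in the not3 arrays and 8.75 and 8.40 in wild type. It was 8.61 in the not4 array, 8.91 in the not5 array, and 5.99 and 6.40 in the 2 arrays of the not2 strain after glucose depletion. All 4 arrays of the not2 strain thus lay below the exponential wild-type, not4 and not5 arrays. Wild-type levels after glucose depletion were not compared here.

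MFA1, which encodes the mating pheromone a-factor, read 6.15 and 6.62 in not2, against 11.90 and 11.69 in not3 and 10.81 and 10.49 in wild type. The difference of -5.41 ± 0.28 was a 42.4-fold lower level (limma adjusted p = 9.35e-11), and a second MFA1 probe set gave -3.39. MFA2, the other a-factor gene, read 7.20 and 8.14 in not2, against 12.53 and 12.34 in not3 (-4.77 ± 0.27, limma adjusted p = 2.23e-10). In both pheromone genes the strains were separated by far more than their replicates. STE2, the receptor for alpha-factor, read 4.23 and 4.35 in not2, against 9.29 and 9.26 in not3 and 8.63 and 8.21 in wild type (-4.99 ± 0.28, limma adjusted p = 2.23e-10). BAR1, the secreted protease that cleaves alpha-factor, read 3.94 and 4.36 in not2, against 9.24 and 9.42 in not3 (-5.18 ± 0.32, limma adjusted p = 9.77e-10).

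The remaining a-specific genes followed the same order. AGA2, the binding subunit of a-agglutinin, differed by -4.33 ± 0.35, and STE6, the exporter of a-factor, by -3.71 ± 0.33. ASG7, a regulator of pheromone signalling after mating, read 4.16 and 4.31 in not2, against 8.08 and 7.91 in not3 and 5.86 and 5.92 in wild type (-3.76 ± 0.34, limma adjusted p = 2.43e-07). For ASG7 the wild type therefore lay between the strains, with not3 above it. STE14, whose product methylates the prenylated end of a-factor and of Ras proteins, is no a-specific gene. It read 6.07 and 6.48 in not2, against 8.73 and 9.04 in not3 and 7.52 and 7.24 in wild type, and it too was lower (-2.61 ± 0.28, limma adjusted p = 3.09e-06).

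No alpha-specific gene was called higher in not2. SAG1, the alpha-agglutinin, read 6.66 and 5.83 in not2, against 7.79 and 7.29 in not3 and 6.76 and 6.60 in wild type (-1.30 ± 0.46, limma adjusted p = 0.0473), and its call was lost on leaving out not2 replicate 2 or either not3 array. The alpha-factor genes MF(ALPHA)1 and MF(ALPHA)2 differed by -0.27 ± 0.30 and -0.44 ± 0.27, and STE3, the a-factor receptor, by -0.73 ± 0.28. None of these 3 was called. STE3 read 2.72 and 2.83 in not2, against 3.52 and 3.49 in not3 and 3.34 and 3.34 in wild type, all below the lower quartile of their arrays.

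**Figure D2:**
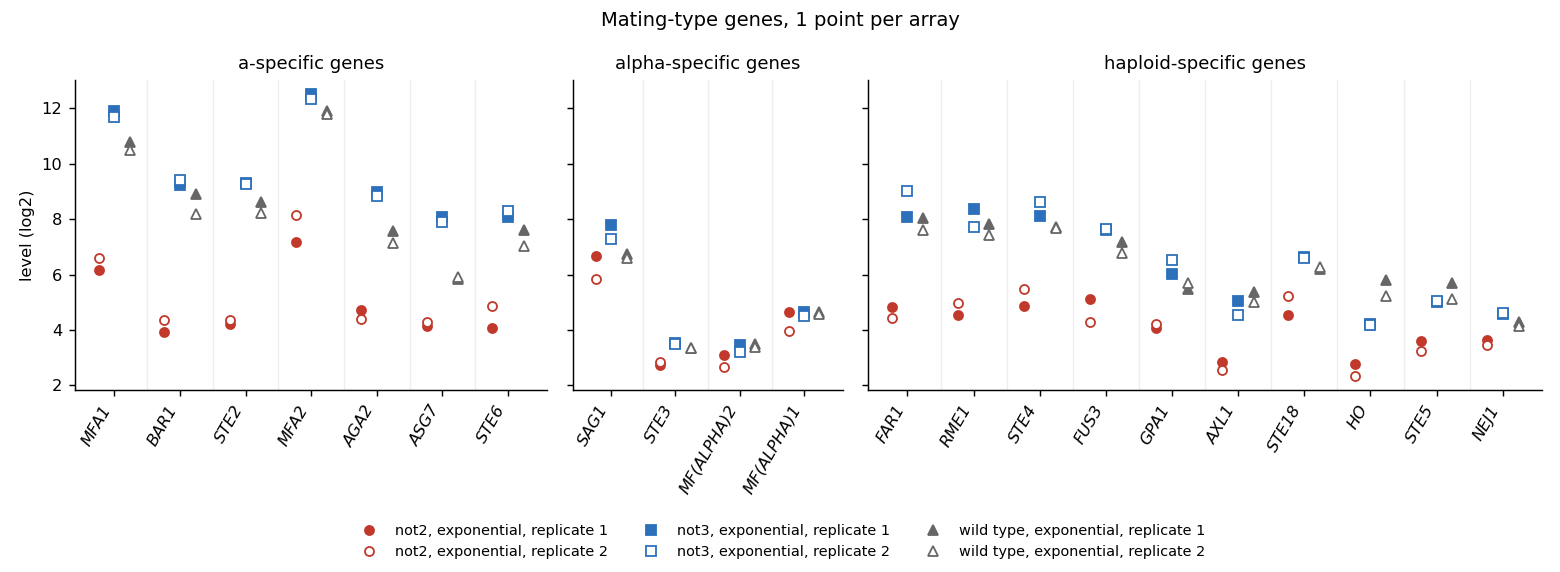
Levels (log2) of the a-specific, alpha-specific and haploid-specific genes on each array, with not2 as red circles, not3 as blue squares and wild type as grey triangles, filled for replicate 1 and open for replicate 2. In the a-specific and haploid-specific panels both not2 points lie below both not3 points for every gene.

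Haploid-specific genes were lower in not2 as well. Of 10 measured, 9 fell and were kept, against 8.86% of all genes called lower, and the median difference was -2.10. Their mean level was 4.08 and 4.02 in not2, against 6.37 and 6.45 in not3 and 6.36 and 6.10 in wild type. FAR1, which arrests the cell cycle in response to pheromone, read 4.84 and 4.44 in not2, against 8.09 and 9.03 in not3 and 8.06 and 7.60 in wild type (-3.92 ± 0.39, limma adjusted p = 8.64e-07). RME1, a repressor of meiosis, read 4.54 and 4.98 in not2, against 8.37 and 7.72 in not3 and 7.82 and 7.44 in wild type (-3.28 ± 0.34, limma adjusted p = 2.2e-06). In the not2 strain after glucose depletion RME1 read 7.32 and 7.34, near the wild-type exponential arrays, while FAR1 there read 3.71 and 4.68.

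The genes of the pheromone-activated G protein were all lower. STE4, the beta subunit, read 4.85 and 5.47 in not2, against 8.11 and 8.62 in not3 and 7.73 and 7.70 in wild type (-3.20 ± 0.31, limma adjusted p = 7.46e-07). GPA1, the alpha subunit, differed by -2.12 ± 0.34 and STE18, the gamma subunit, by -1.74 ± 0.35. The scaffold gene STE5 differed by -1.61 ± 0.31 and the MAP kinase gene FUS3 by -2.93 ± 0.43. Of the other 2 probe sets of FUS3, 1 gave -2.42 and was called, and 1 gave -0.24 and was not. AXL1, a protease that matures a-factor, differed by -2.08 ± 0.30.

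HO and NEJ1 completed the haploid-specific list. HO, the endonuclease gene of mating-type switching, read 2.79 and 2.35 in not2, against 4.21 and 4.20 in not3 and 5.82 and 5.21 in wild type (-1.63 ± 0.30, limma adjusted p = 0.000866), so that not3 also lay below wild type. NEJ1, a gene of DNA end joining, was the member not called (-1.07 ± 0.39, limma adjusted p = 0.0571). Because the labels give neither mating type nor ploidy, the loss of Not2 and the mating-type state of the strain cannot be told apart here. In RNA from whole cultures, fewer cells that express a gene and less RNA per cell cannot be told apart either.

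Some further genes of pheromone response and cell fusion fell in not2. Of 24 measured, 8 were lower and 3 higher, against 8.86% and 12.5% of all genes, and all 8 falls were kept. PRM1, which acts in the fusion of mating cells, read 4.11 and 4.11 in not2, against 7.27 and 7.43 in not3 and 5.94 and 5.68 in wild type (-3.24 ± 0.55, limma adjusted p = 0.000513). FIG1, a membrane protein gene induced by pheromone, read 3.15 and 3.01 in not2, against 5.83 and 5.94 in not3 and 3.69 and 3.44 in wild type (-2.80 ± 0.32, limma adjusted p = 8.54e-06). For FIG1 the not3 arrays stood more than 2 units above wild type, and the not2 arrays lay just below it.

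The other members of that list showed both patterns. AGA1, the anchor subunit of a-agglutinin, differed by -2.98 ± 0.57, the fusion gene FUS1 by -2.57 ± 0.33 and SST2, which dampens G protein signalling, by -2.55 ± 0.31. STE12, the transcription factor of the pathway, and its partner TEC1 differed by -1.78 and -1.76. STE50, an adaptor of the kinase STE11, was higher and kept (1.41), and STE11 was higher by 1.16, a call that was not kept. Of 18 genes of meiotic entry and early meiosis, which a/alpha diploids can express, 2 were higher, near the 12.5% of all genes. Neither was kept: the RNA methyltransferase gene IME4 (0.95 ± 0.26) and the recombination gene MEI4 (0.89 ± 0.22). A second MEI4 probe set gave 0.37 and was not called.

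Among the 12 genes with the highest differences were regulators of growth and nutrient genes. PCL1, a G1 cyclin that partners the kinase Pho85, read 9.30 and 8.92 in not2, against 4.62 and 4.84 in not3 and 5.73 and 6.24 in wild type (4.38 ± 0.30, limma adjusted p = 3.44e-09). The not2 arrays lay above and the not3 arrays below wild type. NCE103, carbonic anhydrase, read 9.97 and 9.75 in not2, against 5.66 and 6.05 in not3 and 6.46 and 7.02 in wild type (4.0 ± 0.38, limma adjusted p = 6.17e-07). SNZ1, a gene of vitamin B6 synthesis, read 8.21 and 8.35 in not2, against 4.55 and 4.28 in not3 and 4.32 and 4.32 in wild type (3.86 ± 0.32, limma adjusted p = 6.24e-08). Its partner SNO1 differed by 3.18 ± 0.29, and for both genes not3 stayed near wild type while the single not4 and not5 arrays, at 7.99 and 7.72 for SNZ1, resembled not2.

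The others of these 12 covered several functions. SPG4, a gene of survival in stationary phase, read 7.83 and 9.20 in not2, against 6.28 and 3.87 in not3 and 2.67 and 3.48 in wild type (3.44 ± 0.58, limma adjusted p = 0.000481). COM2, a transcription factor gene, differed by 2.96 ± 0.26, NCA3 by 3.04 ± 0.62, CIS1 by 2.87 ± 0.47 and the small nucleolar RNA gene SNR45 by 2.92 ± 0.37. HPF1, a cell wall mannoprotein gene, differed by 3.18 ± 0.75 (limma adjusted p = 0.00526), and its call was lost without not2 replicate 1 or not3 replicate 2. PHO89 and TIS11 are described with their pathways.

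Phosphate genes differed member by member. Of 23 measured, 3 were higher and 3 lower, against 12.5% and 8.86% of all genes. The median was 0.02, and it was -0.13 with arrays centred on their medians and -0.20 after cyclic loess. PHO89, a sodium-phosphate cotransporter, read 9.11 and 9.41 in not2, against 5.51 and 5.43 in not3 and 4.81 and 4.79 in wild type (3.79 ± 0.43, limma adjusted p = 6.92e-06). The acid phosphatase gene PHO3 (-1.56 ± 0.26) and the vacuolar alkaline phosphatase gene PHO8 (-1.37 ± 0.29) fell and were kept. PHO8 read 5.94 and 5.96 in not2, against 7.29 and 7.34 in not3 and 5.85 and 5.58 in wild type, so that not2 resembled wild type there.

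Of 27 iron regulon genes 8 were higher and 1 lower, against 12.5% and 8.86% of all genes, with a median of 0.49. TIS11, whose product promotes the decay of mRNAs of iron-using proteins, read 7.04 and 6.95 in not2, against 3.67 and 3.33 in not3 and 3.78 and 4.16 in wild type (3.50 ± 0.45, limma adjusted p = 3.27e-05). ARN2, a siderophore transporter gene, read 7.48 and 7.59 in not2, against 5.73 and 5.82 in not3 and 6.05 and 5.06 in wild type (1.76 ± 0.31, limma adjusted p = 0.000645). These 2 were the kept members. The count of higher members was 3 without not2 replicate 1, 7 without not2 replicate 2, 2 without not3 replicate 1 and 5 without not3 replicate 2.

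Some genes of the G1/S transition and of daughter-cell separation were higher in not2. Of 40 G1/S genes 9 rose and 1 fell, against 12.5% and 8.86% of all genes, with a median of 0.47, and 4 of the rises were kept: PCL1, RNR1, SVS1 and SIC1. RNR1, the large subunit of ribonucleotide reductase, read 9.93 and 9.10 in not2, against 7.12 and 7.42 in not3 and 9.26 and 8.85 in wild type (2.24 ± 0.37, limma adjusted p = 0.000404). For RNR1 it was not3 that lay apart from wild type. SIC1, the inhibitor of B-type cyclin kinase, read 7.87 and 7.82 in not2, against 6.47 and 6.74 in not3 and 6.82 and 6.84 in wild type (1.25 ± 0.26, limma adjusted p = 0.00214). The single member that fell was CDC9, also described above as a neighbour of CDC36. The rises numbered 6 without either not2 array, 4 without not3 replicate 1 and 5 without not3 replicate 2.

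Of 14 daughter-cell separation genes, whose products let the daughter part from its mother, 6 rose and none fell, against the same 12.5% and 8.86%, with a median of 0.87. DSE3 read 6.62 and 6.81 in not2, against 4.22 and 4.27 in not3 and 4.67 and 4.95 in wild type (2.47 ± 0.38, limma adjusted p = 0.000198). EGT2, a cell wall endoglucanase-like gene, differed by 1.57 ± 0.32, and both were kept. The count was 4 without not2 replicate 1, 5 without not2 replicate 2, 4 without not3 replicate 1 and 2 without not3 replicate 2. Of 18 genes of B-type cyclins and mitosis 4 were higher, against 12.5% of all genes, and none of these was kept. Of 11 histone genes listed, HTA1, HTA2, HHT1, HHT2, HHF1 and HHF2 were not measured. Among the 5 measured 1 was higher, against the same 12.5%. This was the centromeric histone gene CSE4 (2.05 ± 0.38), which read 6.41 and 7.31 in not2, against 4.78 and 4.83 in not3 and 5.07 and 5.57 in wild type.

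Many mitochondrial ribosomal protein genes were higher in not2. Of 70 measured, 24 were called higher and none lower, against 12.5% and 8.86% of all genes, and 68 of the 70 differences were above 0, with a median of 0.82. Their mean level was 6.52 and 6.93 in not2, against 5.91 and 5.79 in not3 and 6.12 and 6.20 in wild type. RSM18, of the small subunit, read 7.59 and 7.94 in not2, against 5.71 and 5.72 in not3 and 5.94 and 6.20 in wild type (2.05 ± 0.42, limma adjusted p = 0.002). MRPL27, of the large subunit, read 7.08 and 7.83 in not2, against 5.74 and 5.67 in not3 and 6.82 and 7.03 in wild type (1.76 ± 0.33, limma adjusted p = 0.000907). The count of higher members was 25 without not2 replicate 1, 9 without not2 replicate 2, 14 without not3 replicate 1 and 12 without not3 replicate 2, and 5 members were kept.

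Cytosolic ribosomal protein genes gave few calls. Of 80 measured, none was called higher and 4 were called lower, against 12.5% and 8.86% of all genes. None of the 4 was kept. The median was -0.26, and it was -0.13 after quantile normalization, -0.40 with arrays centred on their medians and -0.05 after cyclic loess. There were 0 calls without not2 replicate 1 or not3 replicate 1, 1 lower without not2 replicate 2 and 1 higher without not3 replicate 2. RPL9A, which showed the lowest of these differences, was at -1.52 ± 0.45, and 30 of the 80 lie on less specific probe sets that related copies can share. Of 99 ribosome biogenesis genes 16 rose, near the 12.5% of all genes, and 1 fell, with a median of 0.52. NOP16 read 8.46 and 9.48 in not2, against 5.71 and 6.52 in not3 and 6.92 and 6.52 in wild type (2.86 ± 0.47, limma adjusted p = 0.000405), and RRP36, a gene of early ribosomal RNA processing, differed by 2.17 ± 0.41. These 2 were the kept members.

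Replicates differed among themselves in the ribosome biogenesis list. Its median difference between replicate 1 and replicate 2 was -0.73 in not2, -0.75 in not3 and 0.73 in wild type. The count of higher members was 23 without not2 replicate 1, 2 without not2 replicate 2, 3 without not3 replicate 1 and 18 without not3 replicate 2. Of 40 genes for respiratory complexes and ATP synthase none rose and 5 fell, against 8.86% of all genes called lower, with a median of -0.41. COX4, of cytochrome c oxidase, read 6.18 and 6.02 in not2, against 8.40 and 7.62 in not3 and 7.02 and 7.23 in wild type (-1.92 ± 0.32, limma adjusted p = 0.000482), and was the kept member. The count was 4 without not2 replicate 1, 1 without not2 replicate 2, 1 without not3 replicate 1 and 6 without not3 replicate 2.

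**Figure D3:**
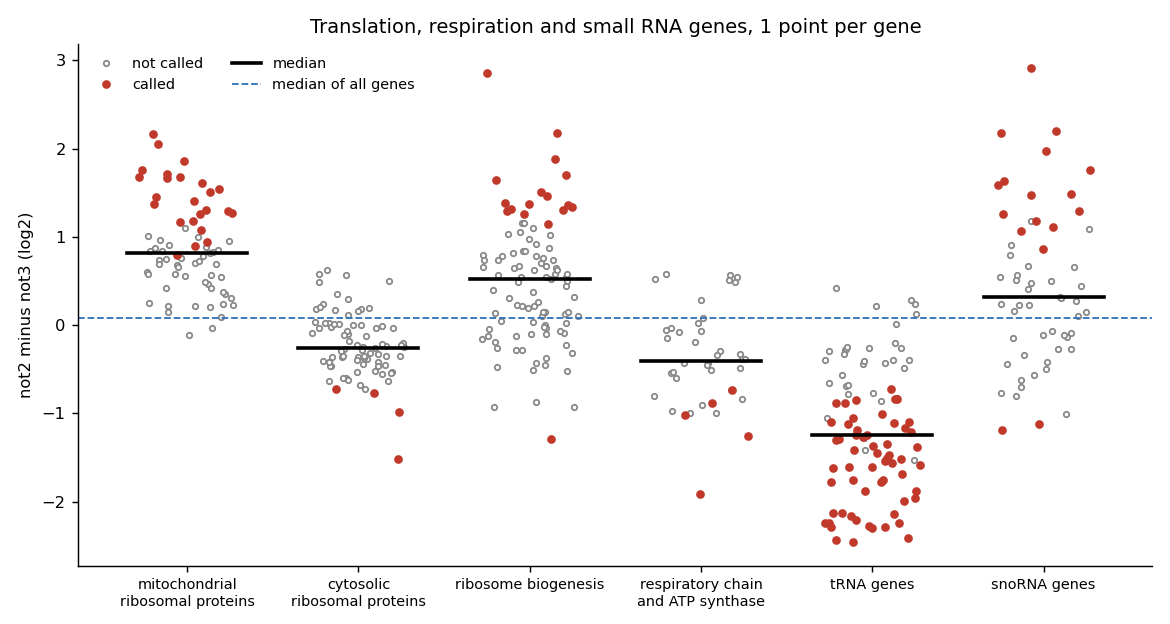
Difference between not2 and not3 (log2) for each gene of 6 lists, with called genes filled, a black bar at each list's median and a dashed line at the median of all genes. The median is 0.82 for mitochondrial ribosomal protein genes, -0.26 for cytosolic ones and -1.25 for tRNA genes.

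Many probe sets annotated to tRNA genes were lower in not2. Of 91 tRNA genes 58 were called lower and none higher, against 8.86% and 12.5% of all genes, and the median was -1.25. Their mean level was 4.98 and 5.26 in not2, against 6.43 and 6.17 in not3 and 5.91 and 5.67 in wild type. SUF10 read 4.49 and 5.50 in not2, against 7.36 and 7.45 in not3 and 6.11 and 5.94 in wild type (-2.41 ± 0.39, limma adjusted p = 0.000358), and SUP51 differed by -2.24 ± 0.36. These are tRNA genes first found as suppressors. Of the 91, 88 lie on less specific probe sets, so that genes of the same family can share a signal, and of the 3 on specific sets 1 was called. The count was 33 without not2 replicate 1, 48 without not2 replicate 2, 25 without not3 replicate 1 and 48 without not3 replicate 2.

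Small nucleolar RNAs guide the modification and processing of ribosomal RNA. Of 57 of their genes measured, 15 rose and 2 fell, against 12.5% and 8.86% of all genes, 7 of the rises were kept, and the median was 0.32. SNR45 read 7.24 and 8.10 in not2, against 4.88 and 4.62 in not3 and 5.09 and 5.22 in wild type. SNR4 was higher by 2.20 and SNR128 by 2.18. The rises numbered 16 without not2 replicate 1, 7 without not2 replicate 2, 8 without not3 replicate 1 and 9 without not3 replicate 2.

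In the stress and storage carbohydrate lists more genes fell than rose, and the not3 replicates stood apart from each other. Of 47 general stress genes 14 fell and 3 rose, against 8.86% and 12.5% of all genes, with a median of -0.31. CTT1, cytosolic catalase, read 3.01 and 3.20 in not2, against 7.40 and 5.02 in not3 and 4.36 and 4.75 in wild type (-3.10 ± 0.54, limma adjusted p = 0.000604). TSA2, a peroxiredoxin gene, read 4.35 and 4.03 in not2, against 7.20 and 5.46 in not3 and 5.84 and 6.05 in wild type (-2.14 ± 0.40, limma adjusted p = 0.000994). Both lay below every not3 and wild-type array and were kept. MSN4, a transcription factor of the stress response, fell by 1.48 and was kept too.

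Some members of the stress list differed in sign. HSP12, which encodes a small membrane-protecting stress protein, read 10.98 and 11.49 in not2, against 10.47 and 7.38 in not3 and 5.75 and 7.27 in wild type (2.31 ± 0.62, limma adjusted p = 0.0118), and its call was lost without not2 replicate 2 or not3 replicate 2. RTN2, a reticulon gene, read 3.45 and 3.20 in not2, against 7.40 and 4.34 in not3 (-2.55 ± 0.57, limma adjusted p = 0.00377), a call lost without not3 replicate 1. The HSP12 and RTN2 calls were also lost in a fit to the 4 not2 and not3 arrays alone. The median difference between replicate 1 and replicate 2 over the list was -0.02 in not2, 1.17 in not3 and -0.61 in wild type. The count of lower members was 9 without not2 replicate 1, 8 without not2 replicate 2, 3 without not3 replicate 1 and 16 without not3 replicate 2. The list's median ran from -0.74 to 0.06 over these 4.

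Of 21 genes of trehalose and glycogen metabolism 9 fell and none rose, against 8.86% and 12.5% of all genes, with a median of -0.88, and every one of the 21 differences was below 0. GSY1, a glycogen synthase, read 6.37 and 6.44 in not2, against 9.83 and 9.21 in not3 and 7.33 and 9.27 in wild type (-3.12 ± 0.43, limma adjusted p = 6.85e-05). PGM2, the main phosphoglucomutase, read 6.50 and 6.51 in not2, against 9.83 and 8.43 in not3 and 7.02 and 9.05 in wild type (-2.63 ± 0.51, limma adjusted p = 0.00128). GLG1, a glycogenin that starts glycogen chains, differed by -2.10 ± 0.37. These 3 were kept, while GPH1, glycogen phosphorylase, was called at -2.74 ± 0.70 and lost without not3 replicate 1. The count was 9 without not2 replicate 1, 5 without not2 replicate 2, 3 without not3 replicate 1 and 11 without not3 replicate 2, and replicate 1 exceeded replicate 2 by a median of 0.89 in not3, against -0.69 in wild type.

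Among chaperone genes rises outnumbered falls. Of 28 measured, 8 rose and 2 fell, against 12.5% and 8.86% of all genes, with a median of 0.67. STI1, a cochaperone that links Hsp70 and Hsp90, read 10.59 and 9.85 in not2, against 8.71 and 7.87 in not3 and 9.54 and 10.27 in wild type (1.93 ± 0.30, limma adjusted p = 0.00024), so that not3 lay apart from wild type. FES1, an exchange factor of Hsp70, differed by 1.42 ± 0.37 and AHA1, an activator of Hsp90, by 1.21 ± 0.33. STI1 alone was kept. The count of higher members was 4 without not2 replicate 1, 3 without not2 replicate 2, 13 without not3 replicate 1 and 1 without not3 replicate 2.

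**Figure D4:**
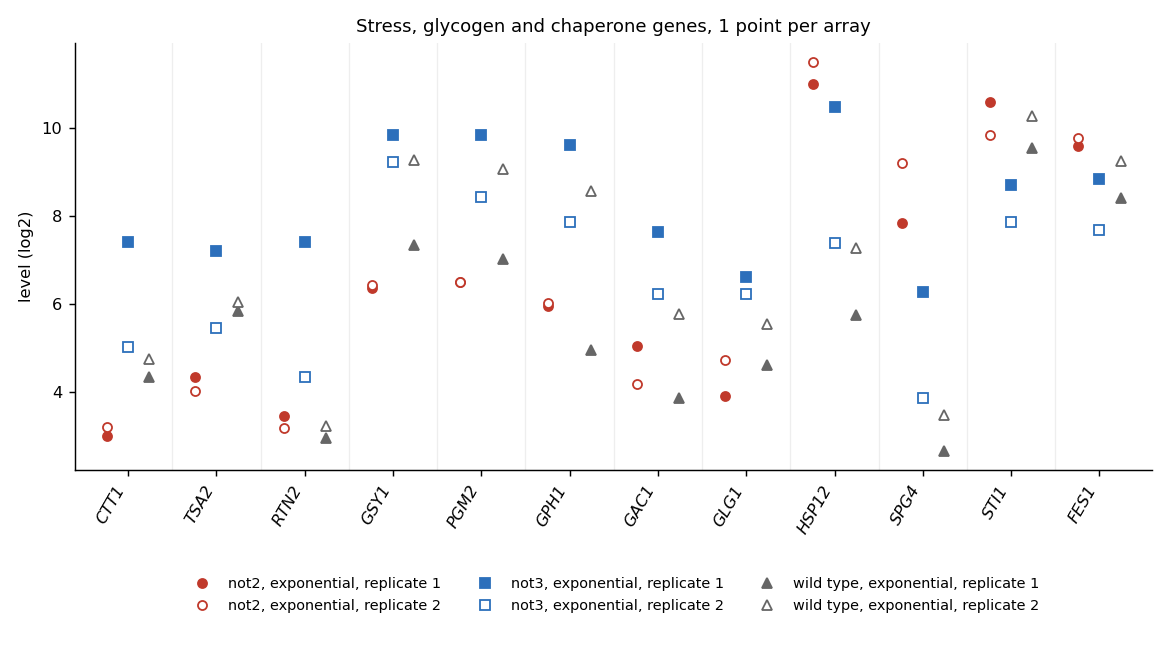
Levels (log2) of 12 stress, glycogen and chaperone genes on each array, with not2 as red circles, not3 as blue squares and wild type as grey triangles, filled for replicate 1 and open for replicate 2. The 2 not3 arrays differ widely for CTT1 (7.40 and 5.02), RTN2 (7.40 and 4.34) and HSP12 (10.47 and 7.38), while the 2 not2 arrays lie close together for these genes.

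Carbon source genes gave mixed results. HXT4, a hexose transporter gene induced by low glucose, read 5.82 and 6.91 in not2, against 9.44 and 9.49 in not3 and 5.66 and 6.77 in wild type (-3.10 ± 0.40, limma adjusted p = 3.62e-05). Here not2 overlapped wild type and not3 stood apart. HXT5, a transporter of slow-growing cells, read 7.06 and 7.30 in not2, against 5.89 and 5.56 in not3 and 5.07 and 5.06 in wild type (1.46 ± 0.31, limma adjusted p = 0.00249). SUC2, invertase, read 5.48 and 5.38 in not2, against 8.24 and 7.29 in not3 and 6.38 and 6.42 in wild type (-2.33 ± 0.34, limma adjusted p = 0.000161). That SUC2 probe set is a less specific one. Another less specific SUC2 set gave -3.03 and was called, while the specific set gave 0.33 and was not.

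The lists of central metabolism gave calls at shares near or below the 21.4% of all genes, except the TCA cycle list. Calls went both ways in all but the glycolysis and fermentation list. Of 15 hexose carrier and sensor genes 1 rose and 2 fell, of 37 glucose-repressed genes 2 rose and 4 fell, of 19 glycolysis and fermentation genes 2 fell, and of 12 TCA cycle genes 2 rose and 2 fell. MAL31, a maltose permease gene, was lower and kept (-1.49 ± 0.27), as was the alcohol dehydrogenase gene ADH5 (-2.16 ± 0.36). MAL31 lies on a less specific probe set that related copies can share. It read 3.08 and 3.24 in not2, below the lower quartile of each of these arrays. The gluconeogenic gene PCK1 was higher by 2.15 ± 0.53, a call lost without not2 replicate 2. Of the 12 TCA cycle genes 33.3% were called, and none of these calls was kept.

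Some hypoxic genes were lower in not2. Of 21 measured, 6 were lower and 3 higher, against 8.86% and 12.5% of all genes, with a median of -0.58. ANB1, the eIF5A gene that is used without oxygen, read 7.90 and 8.09 in not2, against 10.36 and 10.07 in not3 and 10.47 and 10.49 in wild type (-2.22 ± 0.34, limma adjusted p = 0.000198). AAC3, the anaerobic ADP/ATP carrier, read 5.80 and 5.43 in not2, against 7.52 and 7.34 in not3 and 8.01 and 7.68 in wild type (-1.81 ± 0.33, limma adjusted p = 0.000788). Both were kept, and the not5 array read 6.68 for ANB1 and 5.16 for AAC3. The count of lower members was 4 without either not2 array, 2 without not3 replicate 1 and 5 without not3 replicate 2.

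Among amino acid biosynthesis genes falls outnumbered rises. Of 58 measured, 9 fell and 3 rose, against 8.86% and 12.5% of all genes, with a median of -0.44. LEU9, of leucine synthesis, read 5.06 and 5.06 in not2, against 7.42 and 7.74 in not3 and 7.35 and 7.30 in wild type (-2.51 ± 0.36, limma adjusted p = 0.000134). ARG4, of arginine synthesis, read 5.69 and 5.64 in not2, against 8.28 and 8.07 in not3 and 7.69 and 7.39 in wild type (-2.50 ± 0.29, limma adjusted p = 7.52e-06). HOM2, of the threonine and methionine branch, fell by 2.07 ± 0.34, and ARO9, an aromatic aminotransferase, was higher by 1.84 ± 0.33. All 4 of these genes were kept. The count of lower members was 11 without not2 replicate 1, 6 without not2 replicate 2 or not3 replicate 1 and 5 without not3 replicate 2. In the sulfate and methionine list 3 of 28 fell, near the 8.86% of all genes. Among these, SAM2, an S-adenosylmethionine synthetase gene, was kept (-1.23 ± 0.29).

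Some genes of general transcription factors rose. In the list of TFIID and SAGA subunits, which also holds BUR6 of the NC2 regulator, 6 of 31 were higher and none lower, against 12.5% and 8.86% of all genes, with a median of 0.42. BUR6 read 7.98 and 8.63 in not2, against 5.77 and 6.0 in not3 and 6.39 and 6.35 in wild type (2.42 ± 0.33, limma adjusted p = 7.32e-05). TAF11 read 7.60 and 7.84 in not2, against 5.70 and 5.75 in not3 and 6.13 and 5.87 in wild type (1.99 ± 0.29, limma adjusted p = 0.000146). TAF7 differed by 1.51 ± 0.29 and TAF12 by 1.35 ± 0.32, and these 4 were kept. ADA2, of SAGA, was called at 1.45 ± 0.31 and lost without not3 replicate 2.

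Of 43 mRNA decay factors 7 were higher and none lower, with a median of 0.35. The share called higher lay near the 12.5% of all genes. EDC2 and EDC3 encode enhancers of decapping. EDC3 read 8.08 and 7.67 in not2, against 6.04 and 6.12 in not3 and 7.13 and 6.89 in wild type (1.79 ± 0.29, limma adjusted p = 0.000358), and EDC2 differed by 2.21 ± 0.37. LSM4, of the ring that binds the ends of shortened mRNAs, differed by 2.02 ± 0.38, and with TIS11 these made up the 4 kept members. The count was 6 without not2 replicate 1 or not3 replicate 2, 5 without not2 replicate 2 and 4 without not3 replicate 1.

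Of 34 proteasome genes 6 were higher and none lower, with a median of 0.33, again near the 12.5% called higher among all genes. RPN4, the transcription factor of proteasome genes, read 8.57 and 9.0 in not2, against 7.48 and 7.43 in not3 and 6.99 and 7.37 in wild type (1.33 ± 0.27, limma adjusted p = 0.0019). PUP3, a core particle subunit, differed by 1.22 ± 0.25, and these 2 were kept. The count was 8 without not2 replicate 1, 2 without not2 replicate 2 or not3 replicate 1 and 4 without not3 replicate 2. Of 21 DNA damage genes 2 were higher, against the same 12.5%, and the ubiquitin receptor gene DDI1 was kept (1.36 ± 0.29).

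Cell wall genes moved both ways. Of 35 measured, 9 rose and 5 fell, against 12.5% and 8.86% of all genes, with a median of 0.00. Among these calls, 1 rise and 2 falls were kept. GAS3, of a family of glucan-remodelling proteins, read 5.78 and 5.88 in not2, against 9.62 and 9.41 in not3 and 9.38 and 9.50 in wild type (-3.69 ± 0.30, limma adjusted p = 6.24e-08). The not5 array read 6.51 and the not4 array 8.68, and the not2 arrays after depletion read 5.81 and 5.43. CRH1, a chitin transglycosylase, was higher (1.77 ± 0.31) and WSC4, a sensor-like wall protein gene, was lower (-2.11 ± 0.34), both kept. The rises numbered 3 without not2 replicate 1 or either not3 array and 7 without not2 replicate 2, and the falls 2 without not3 replicate 1 and 3 without each of the others.

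Of 9 flocculation and adhesion genes 1 fell, near the 8.86% of all genes: the mating agglutinin gene AGA1 described above. Of 8 auxotrophic marker genes, which are often altered in laboratory strains, 4 were called, against 21.4% of all genes. The arrays of the 2 strains lay apart for all 8, against 61.4% of all genes. CAN1 and ADE2 were called higher (1.37 ± 0.32 and 1.10 ± 0.31), and MET17 and LEU2 lower (-1.10 ± 0.30 and -0.76 ± 0.26), with no call kept. The other 4 were not called: the differences were 0.52 ± 0.23 for URA3, -0.45 ± 0.27 for HIS3, -0.23 ± 0.41 for TRP1 and -0.53 ± 0.34 for LYS2. A second HIS3 probe set gave -1.21 and was called, while the other 2 LEU2 probe sets gave -0.02 and 0.13 and were not. TRP1 read 2.11 and 2.09 in not2, against 2.21 and 2.46 in not3 and 2.88 and 2.64 in wild type, which is low on every one of these arrays.

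Some called genes lay on opposite sides of wild type in the 2 strains. Among the called genes 341 (6.03% of those tested) had a not2 mean above and a not3 mean below both wild-type arrays, and 302 (5.34%) had the reverse. These genes were chosen by their calls between the strains, and the counts are given as a description. BMT2, a ribosomal RNA methyltransferase gene, read 5.93 and 5.82 in not2, against 3.72 and 3.95 in not3, with wild type between at 5.30 and 4.32 (2.04 ± 0.41, limma adjusted p = 0.00163). OXA1, which inserts proteins into the inner mitochondrial membrane, read 9.64 and 9.11 in not2, against 7.46 and 7.50 in not3 and 8.50 and 8.37 in wild type (1.89 ± 0.34, limma adjusted p = 0.000727). MPP6, a cofactor of the nuclear exosome, differed by 2.30 ± 0.47, and the genes YGR035C and YNL050C by 2.28 ± 0.40 and 2.0 ± 0.38. All 5 were kept. In the reverse direction stood STE14, PRM1, ASG7, SUF10 and SUP51, with the values given above.

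**Figure D5:**
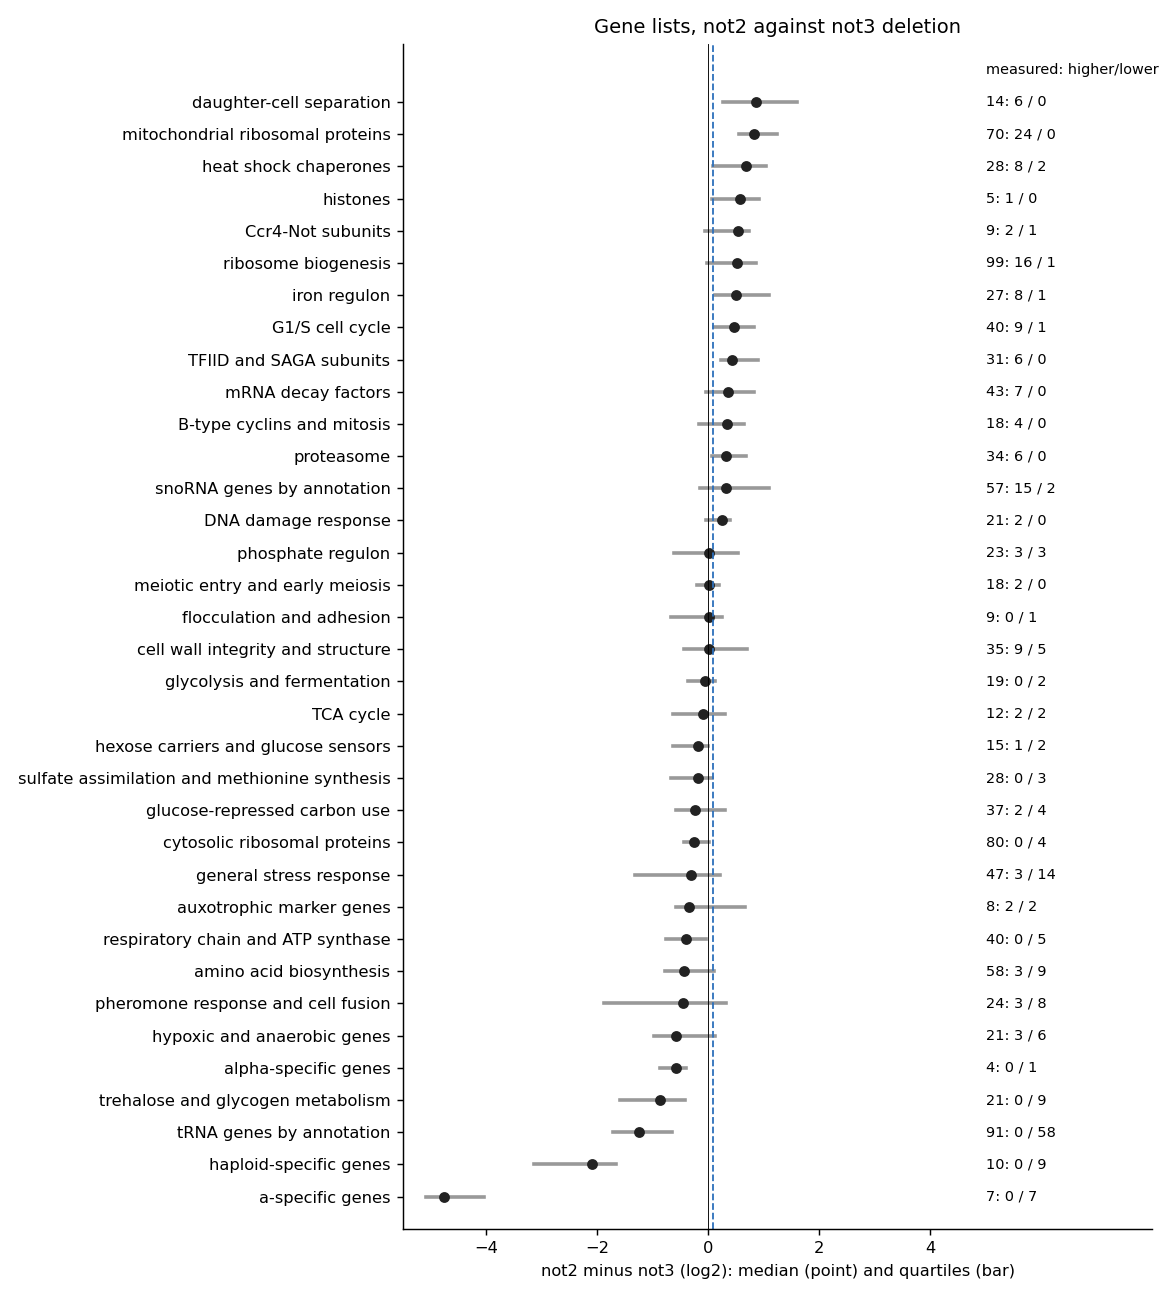
Median (point) and quartiles (bar) of the difference between not2 and not3 (log2) in each gene list, with the number of genes measured and the numbers called higher and lower in not2 at the right, and a dashed line at the median of all genes. The a-specific list, at -4.77, and the haploid-specific list, at -2.10, lie at the bottom, and the daughter-cell separation list, at 0.87, lies at the top.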

How the data were processed

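Total RNA from 25 yeast cultures was hybridised to Affymetrix arrays, 1 array per sample, after acid phenol extraction and biotin labelling per the labels. The authors deposited 1 table of values, taken here as log2 intensity summaries of 9275 probe sets. The log base was inferred from their range of 1.36 to 13.94, and no source used here gives the software, the background correction or the normalization. The values were used as deposited.

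Probe sets with 1 gene symbol in the platform annotation were used (6504, while 328 had several and 2443 had none), with symbols updated through Entrez numbers to the R64 reference. Where a gene had several sets (315 genes), the one brightest on average across the arrays was taken, and 295 genes rest on less specific sets. Groups came from sample titles. Group means of all 25 arrays in 14 groups were fitted with lmFit and eBayes (trend on) of limma 3.58.1, run under R 4.3.3; degrees of freedom were 11 residual and 9.03 prior, with Benjamini-Hochberg adjustment over 5656 genes and calls at 0.05. The steps were tested on simulated data. The number of arrays limits the precision. The p-values rest on the spread between independent preparations pooled over the groups of all 25 arrays, and not on the spread of not2 and not3 alone.

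The comparison and the 33 gene lists (952 of 1035 members measured) were chosen with earlier results of these data known. Lists are described by counts and medians. The naming rule took the subunits, the 12 highest and 12 lowest called genes without overlap, up to 5 called members of each list, all mating-type and marker genes, the neighbours of both deletions, and up to 12 genes each way on opposite sides of wild type. It gave 174 genes, of which 160 were called. The text gives a part of them in that order, passing over many whose calls were lost. STE12, TEC1, STE50, STE11, MSN4, SNR4 and SNR128 lie outside the rule and were chosen after their values were seen.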

Additional observations from a re-analysis of the deposited data

How the results depend on the processing

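On leaving out 1 array the lone remaining one was taken to vary as the other groups do. The number of genes called then ran from 485 to 881, those higher in not2 from 277 to 573 and those lower from 208 to 345. No called named gene changed direction in the alternatives run. Of the 160 named calls, 70 were lost on leaving out 1 array, 34 under another setting, and 90 were kept throughout. The a-specific count stayed at 7 and the haploid-specific count of 9 was unchanged on leaving out any array. The a-specific median ran from -5.05 to -4.49 without 1 array, and was -4.91 with arrays centred on their medians, -4.40 for the mean of all probe sets of a gene, -4.55 on specific probe sets only and -4.52 after cyclic loess, an alternative added after the data were seen. The haploid-specific median was -3.07 with dim genes left out and -2.34 after cyclic loess. Called mitochondrial ribosomal protein genes ran from 9 to 25, and called tRNA genes from 25 to 48, without 1 array. On specific probe sets only, 1 tRNA gene was called, with a median of -0.39, since that setting leaves 3 tRNA genes. The count of calls was 1112 after quantile normalization, 1217 without the trend, 1072 without dim genes, 867 in the 4 arrays alone and 1368 in the 14 exponential arrays. Replicate numbers are not stated to pair samples. Same-numbered not2 and not3 arrays deviated together with r = 0.276 over genes, with 2 pairs only, and a fit with the replicate number as a block called 1125 genes.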

Other observations

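HMRA1, the copy of the a1 gene at a silent mating locus, was looked up after the mating-type values had been seen. The a1 protein acts with alpha2 in a/alpha diploids to turn off haploid-specific genes. In its brightest probe set HMRA1 read 7.02 and 7.81 in not2, against 7.57 and 7.41 in not3 and 6.93 and 7.17 in wild type, a difference of -0.07 ± 0.47. The other 2 sets gave differences of 0.04 and -0.00, and none of the 3 was called. Those 2 sets read below the lower quartile of each of these arrays, so their differences say little. All 3 are less specific sets, so the signal can be shared with related copies and cannot be credited to the silent copy alone. The probe sets of the alpha1 and alpha2 genes carry several symbols and were not used here.

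The smallest absolute difference that was called was 0.61, and the median of the called ones was 1.26. Of the called genes 1207 had arrays that did not overlap between the strains and 3 had arrays that did. At an unadjusted p under 0.05 the limma fit gave 1962 genes.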
